A study of Ovis aries with 9 samples.

Results

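The miRNAs miR-34c and miR-449a were followed in the small RNA of ram sperm, in 3 libraries named OVER, RES and CON. Each was taken as all sequences annotated as miRNA, with no ovine miRNA name beside them, that begin with the first 18 bases of miR-34c-5p or of miR-449a. These are 2 of 5622 different 18-base starts among the miRNA reads of the series. Of 3309646 distinct sequences in the series, 63 belonged to miR-34c and 31 to miR-449a, 94 in all. The OVER library held 49 sequences of miR-34c and 23 of miR-449a, the RES library 58 and 22, and the CON library 48 and 20. All of them carried the deposited flag for a match to the genome.

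The rams were F1 sons of ewes that were overfed (OVER), kept on restricted feed (RES) or given a standard diet (CON), the diet being the mother's nutrition in gestation as the series title gives it. All animals were labelled wild type. The labels give neither breed nor age, and do not say whether semen was pooled. Before RNA extraction, somatic cells were lysed with detergent, and RNA of 15 to 50 nt was selected for the libraries. Each group has 3 samples in the labels, but the 3 deposited tables of a group held the same sequences with the same reads. A group is for that reason treated as 1 library, and no difference below has a replicate check or a test. Intervals are 95% intervals from the read counts and cover counting error only, since PCR copies are not independent molecules. The libraries held 8287937 reads in OVER, 13160116 in RES and 9983895 in CON. Of these, 16.7% in OVER, 11.6% in RES and 8.41% in CON were annotated as miRNA. Read lengths differed as well, with 29.6% of reads at 15 to 20 nt in OVER, 10.3% in RES and 5.98% in CON.

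A miRNA guides the Argonaute protein to messages that pair with its seed, bases 2 to 8 from its 5′ end, so miRNAs with one seed form a family with shared potential targets. The miR-34 and miR-449 miRNAs are such a family. miR-34b and miR-34c are cut from one transcript, and miR-449a, miR-449b and miR-449c come from a cluster within an intron of CDC20B. In the mouse, miR-34b, miR-34c and the miR-449 cluster rise in the testis with meiosis, are also made by multiciliated epithelia such as that of the efferent ducts, and are together needed for sperm production and for motile cilia. miR-34c is known as one of the most abundant miRNAs of mature sperm in several mammals. The strands from the 5′ and 3′ sides of a hairpin are called 5p and 3p, and forms of one miRNA with other ends are called isomiRs.

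The sequences below are the most-read forms of both members, which show the seed they share and how they differ after it. They are followed by the 3p strands and the miR-34b-like strand that the later results use. All were copied from the deposited tables, written 5′ to 3′ as DNA letters, with bases 2 to 8 in capitals.
miR-34c, 23 nt: aGGCAGTGtagttagctgattgc
miR-34c, 21 nt: aGGCAGTGtagttagctgatt
miR-34c, 22 nt: aGGCAGTGtagttagctgattg
miR-34c, 24 nt: aGGCAGTGtagttagctgattgca
miR-34c, 23 nt with another last base: aGGCAGTGtagttagctgattga
miR-449a, 21 nt: tGGCAGTGtattgttagctgg
miR-449a, 22 nt: tGGCAGTGtattgttagctggt
miR-449a, 22 nt with another last base: tGGCAGTGtattgttagctgga
miR-449a, 20 nt: tGGCAGTGtattgttagctg
miR-449a, 23 nt: tGGCAGTGtattgttagctggta
3p strand, miR-34b-like: aATCACTAgttccactgccatc
3p strand, miR-34c: aATCACTAaccacacggccagg
miR-34b-like 5p strand: tAGGCAGTgtaattagctgatt
miR-34c and miR-449a were identical at bases 2 to 10, which include the seed, and first differed after it at base 11. Laid side by side with no gap, 10 of their first 18 bases were the same.

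Nearly all reads with this seed belonged to the 2 members. They were picked as the 2 most-read starts with it, so their lead follows from that choice, but the size of their shares does not. Among miRNA reads with no ovine name, the seed was read 92670 times in OVER, 94595 times in RES and 60608 times in CON. miR-34c alone held 95.1% of these reads in OVER, 95.8% in RES and 94.9% in CON. miR-449a held 3.96% in OVER, 3.29% in RES and 4.13% in CON. Every other start with the seed together held 0.945% in OVER, 0.937% in RES and 0.932% in CON. Most of these differed from a member at a single one of the first 18 bases, with 868 reads in OVER, 886 in RES and 557 in CON. Starts further from both members had 8 reads in OVER, 0 in RES and 8 in CON, and none of them exceeded 7 reads in any library. miR-34a, the p53-induced miRNA of somatic tissues that shares the seed, differs from both members at several of these bases and would fall among those few reads. One start a base away from miR-449a, T1A (positions counted from 1 at the 5′ end of miR-449a), has the first bases of human miR-449b. It was read 6 times in OVER, 3 times in RES and 3 times in CON.

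miR-34c was among the most-read miRNAs of each library. Reads were summed over all miRNA sequences with the same first 18 bases, here called a start. miR-34c was the start with the 4th most reads of 3596 in OVER, the 5th of 3409 in RES and the 3rd of 2740 in CON. It had 88128 reads in OVER, 90594 in RES and 57540 in CON. These were 6.38% (6.34 to 6.42) of the miRNA reads of OVER, 5.93% (5.89 to 5.97) of those of RES and 6.86% (6.80 to 6.91) of those of CON. CON had the highest share and RES the lowest, and the 3 counting intervals did not overlap. Scaled to reads of all kinds (RPM) the order was another one, at 10633 RPM in OVER, 6884 in RES and 5763 in CON. On that scale OVER was highest and CON lowest.

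miR-449a was far less abundant and lay at rank 43 in OVER, 47 in RES and 40 in CON. It had 3666 reads in OVER, 3115 in RES and 2503 in CON. Its share of miRNA reads was 0.265% (0.257 to 0.274) in OVER, 0.204% (0.197 to 0.211) in RES and 0.298% (0.287 to 0.310) in CON. The order of the shares was that of miR-34c, with CON highest and RES lowest, and the intervals again did not overlap. In RPM it stood at 442.3 in OVER, 236.7 in RES and 250.7 in CON, so that OVER stood above the other libraries and RES and CON lay close together.

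**Figure D1:**
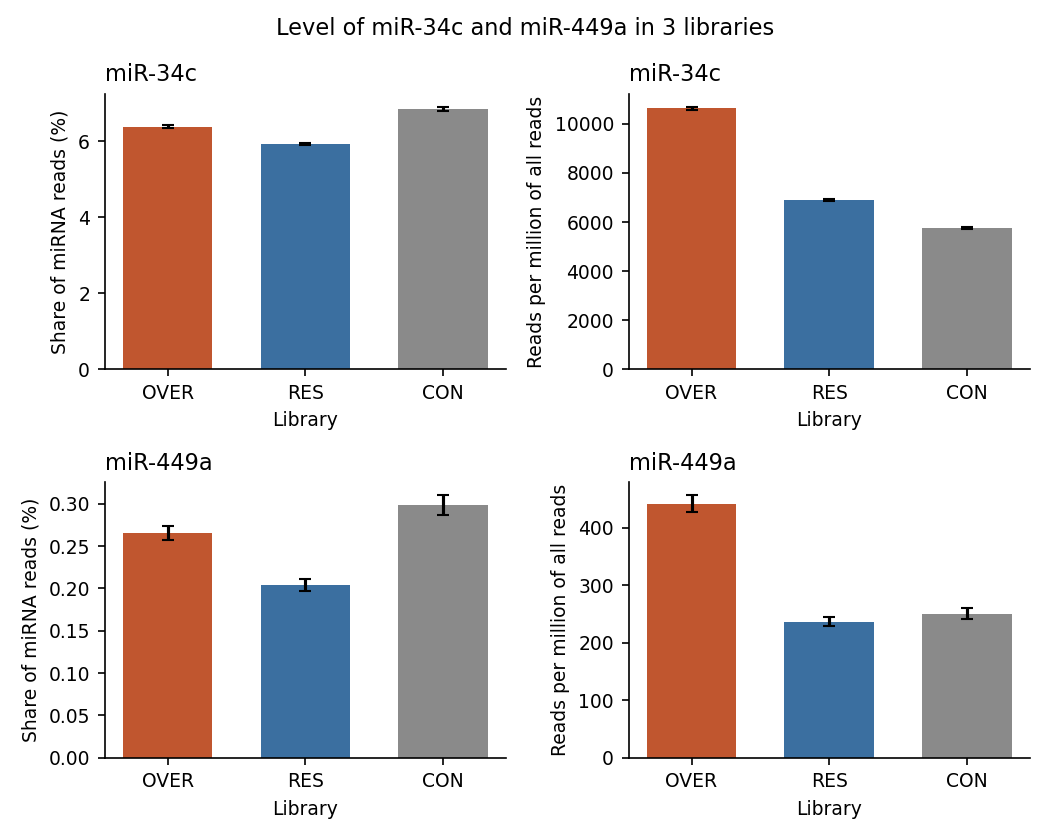
Levels of miR-34c (upper row) and miR-449a (lower row) in the OVER, RES and CON libraries, 1 library each, as percent of miRNA reads (left) and as RPM (right); bars are the library's value and error bars the exact 95% counting interval. By share of miRNA reads CON was highest for both (6.86% and 0.298%), while by RPM OVER was highest for both (10633 and 442.3).

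Neither member differed 2-fold between any pair of libraries, by share of miRNA reads, in RPM or with the TMM scaling described below. In OVER against CON the log2 ratio of shares of miRNA reads was -0.10 (-0.12 to -0.09) for miR-34c and -0.17 (-0.24 to -0.09) for miR-449a. Of 324 starts with at least 100 reads in both libraries together, 59 passed 2-fold with OVER above CON (18.2%) and 56 with OVER below CON (17.3%), and neither member was among them. The median log2 ratio of these starts was 0.11. In RPM the log2 ratios were 0.88 for miR-34c and 0.82 for miR-449a, below a median of 1.09 over the same starts. On that scale 172 starts (53.1%) passed 2-fold with OVER higher and 26 (8.02%) with OVER lower, and the members did not. By share, both members were thus slightly below the median start, but between the lower and upper quartiles of the starts, -0.57 and 0.84. The positive RPM ratios lie on a scale where most starts moved up.

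In RES against CON the members differed from each other. The log2 ratio of shares was -0.21 (-0.22 to -0.19) for miR-34c and -0.55 (-0.63 to -0.47) for miR-449a, beside a median of 0.02 over 308 starts. Of these, 35 passed 2-fold with RES above CON (11.4%) and 48 with RES below CON (15.6%), again without the members. In RPM the log2 ratio was 0.26 for miR-34c and -0.08 for miR-449a, where the median was 0.49 and the split was 77 higher (25%) to 36 lower (11.7%). Both members were below the median start, and miR-449a lay further below it. By share both still lay between the lower and upper quartiles of the starts, -0.59 and 0.53. The change from shares to RPM moves all starts alike, so it cannot alter these positions.

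In OVER against RES the log2 ratio of shares was 0.11 (0.09 to 0.12) for miR-34c and 0.38 (0.31 to 0.45) for miR-449a. The median of 350 starts was 0.38, with 97 past 2-fold where OVER was above RES (27.7%) and 57 where it was below (16.3%), neither member among them. miR-449a stood at that median and miR-34c below it. In RPM the values were 0.63 for miR-34c and 0.90 for miR-449a, beside a median of 0.90 and a split of 164 higher (46.9%) to 49 lower (14%). OVER and RES were each set against the same CON library, so the comparisons are not independent of each other. With TMM, which scales a library so that most starts are alike, the log2 ratios of miR-34c were -0.42 in OVER against CON, -0.09 in RES against CON and -0.33 in OVER against RES, so the direction of the last turned. Those of miR-449a were -0.48, -0.43 and -0.05 (-0.12 to 0.02) in the same order of comparisons. The TMM splits at 2-fold were 33 higher (10.2%) to 75 lower (23.1%) in OVER against CON, 39 (12.7%) to 43 (14%) in RES against CON and 55 (15.7%) to 79 (22.6%) in OVER against RES. Their medians were -0.21, 0.14 and -0.05.

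**Figure D2:**
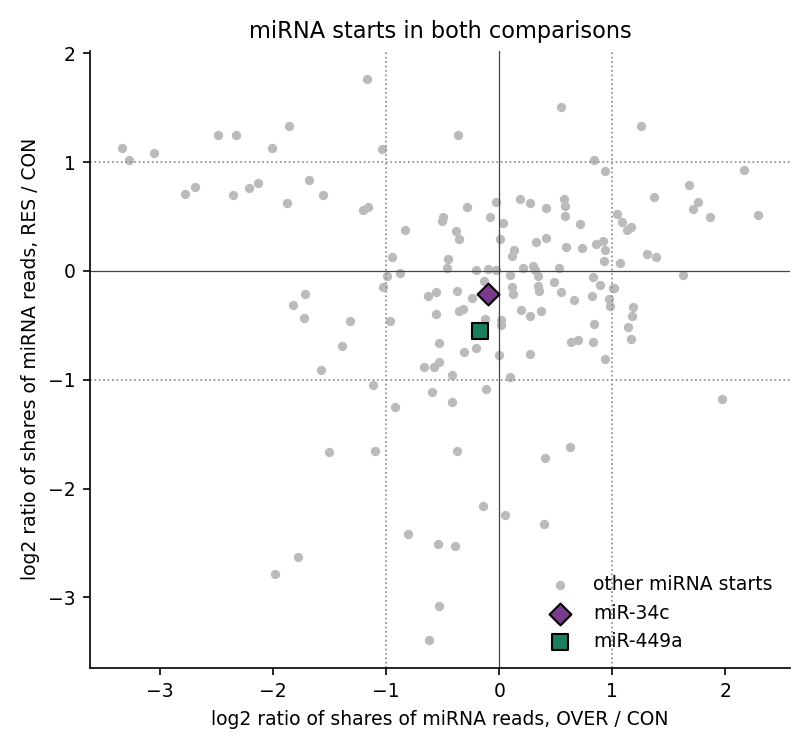
Log2 ratio of shares of miRNA reads in OVER against CON (horizontal) and in RES against CON (vertical) for the 158 starts with at least 100 reads in every library; both axes share the CON library, and dotted lines mark 2-fold. miR-34c (diamond) at -0.10 and -0.21 and miR-449a (square) at -0.17 and -0.55 lie inside the 2-fold lines, below 0 on both axes.

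The number of miR-34c reads per miR-449a read does not depend on the scaling. It was 24.04 in OVER, 29.1 in RES and 22.99 in CON. The log2 ratio of these ratios was 0.06 (-0.01 to 0.14) in OVER against CON, whose counting interval includes 0. It was 0.34 (0.26 to 0.42) in RES against CON and -0.27 (-0.34 to -0.20) in OVER against RES. The RES library was the one in which miR-449a was low relative to miR-34c, by less than 2-fold.

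The miRNAs closest to the members were sought among 56 ovine miRNA names with at least 100 reads in every library, by the distance between the pairs of log2 RPM ratios (OVER against CON, RES against CON). Closest to miR-34c were oar-mir-30a, at a distance of 0.039, and oar-mir-30d, at 0.044, which share the miR-30 seed. The next names, oar-mir-10b, oar-mir-17 and oar-mir-25, were at distances of 0.298 to 0.341. oar-mir-30a had log2 RPM ratios of 0.88 and 0.22, against 0.88 and 0.26 for miR-34c. Closest to miR-449a were oar-mir-10b at 0.160, oar-mir-17 at 0.180 and oar-mir-10a at 0.185, followed by oar-mir-21 and oar-mir-30a at 0.277 and 0.306. With 3 libraries a close pair of ratios describes these libraries and nothing more.

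Markers of other cell types set the RES library apart more than the members did. For epithelium, the ovine names oar-mir-200c, oar-mir-200a and oar-mir-200b were measured, 3 of the 5 listed, and none was at 0. Their summed share of miRNA reads was 0.656% in OVER, 0.115% in RES and 0.552% in CON, so RES, where the share of miR-449a was lowest, was also lowest in these. For red blood cells, miR-451 and miR-486 together had 11 reads in OVER, 3911 in RES and 10 in CON, 2 of the 3 listed. For white blood cells, miR-223 and oar-mir-150, 2 of the 4 listed, together had 500 reads in OVER, 47 in RES and 378 in CON, of which miR-223 had 490 in OVER, 10 in RES and 366 in CON and oar-mir-150 had 10 in OVER, 37 in RES and 12 in CON. RES was thus lowest in miR-223 and highest in oar-mir-150. For smooth muscle, oar-mir-143, 1 of the 2 listed, had 102 reads in OVER, 50 in RES and 79 in CON. The RES library thus stood apart in blood and epithelial miRNAs, and the part of these cells in the levels of miR-34c and miR-449a was not tested. In bulk libraries, a smaller number of cells that make a miRNA and less of it per cell cannot be told apart. Of the germ line list, 2 members have an ovine name. oar-mir-191 held 3.92% of miRNA reads in OVER, 6.52% in RES and 5.08% in CON, and oar-mir-22 held 1.57%, 0.708% and 0.631% in the same libraries. oar-mir-191 was thus of the order of miR-34c and oar-mir-22 below it. By share of miRNA reads oar-mir-191 was highest in RES, where miR-34c was lowest. The other listed germ line names and marker miRNAs were not analysed here.

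The members differed in length. miR-34c was mainly 23 nt long, with 63.5% of its reads at this length in OVER, 60.3% in RES and 63.6% in CON. Its next length was not the neighbouring one but 21 nt, with 19.7% in OVER, 25.02% in RES and 19.9% in CON. The 22 nt form held 11.2% in OVER, 9.91% in RES and 11.7% in CON, and the 24 nt form 3.53%, 2.77% and 3.27%. The 5 most-read sequences printed above held 95.7% of its reads in OVER, 95.6% in RES and 95.8% in CON. The full-length form ending in c was read 52988 times in OVER, 51340 times in RES and 34281 times in CON. The form shorter by the last g and c was read 17085 times in OVER, 22482 times in RES and 11339 times in CON.

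The balance of these forms was like in OVER and CON and other in RES. There were 3.22 reads of 23 nt per read of 21 nt in OVER, 2.41 in RES and 3.19 in CON. The log2 ratio of these ratios was 0.01 (-0.03 to 0.05) in OVER against CON, -0.41 (-0.44 to -0.37) in RES against CON and 0.42 (0.39 to 0.45) in OVER against RES.

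miR-449a was mainly 21 nt long, with 59.002% of its reads at this length in OVER, 56.1% in RES and 54.3% in CON. The 22 nt form held 30.5% in OVER, 33.8% in RES and 33.2% in CON. It had 1.93 reads of 21 nt per read of 22 nt in OVER, 1.66 in RES and 1.63 in CON. The log2 ratio of these was 0.24 (0.08 to 0.41) in OVER against CON and 0.02 (-0.14 to 0.19) in RES against CON. The shift towards the shorter form that set RES apart for miR-34c was not seen at the main lengths of miR-449a, and the difference between the members was not tested. The 24 nt form of miR-449a held 1.83% in OVER, 1.99% in RES and 3.64% in CON, and nearly all of it was tGGCAGTGtattgttagctggtag, with 63 reads in OVER, 59 in RES and 91 in CON. The mean length was 22.5 nt in OVER, 22.4 nt in RES and 22.5 nt in CON for miR-34c, and 21.4 nt in OVER, 21.5 nt in RES and 21.5 nt in CON for miR-449a.

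**Figure D3:**
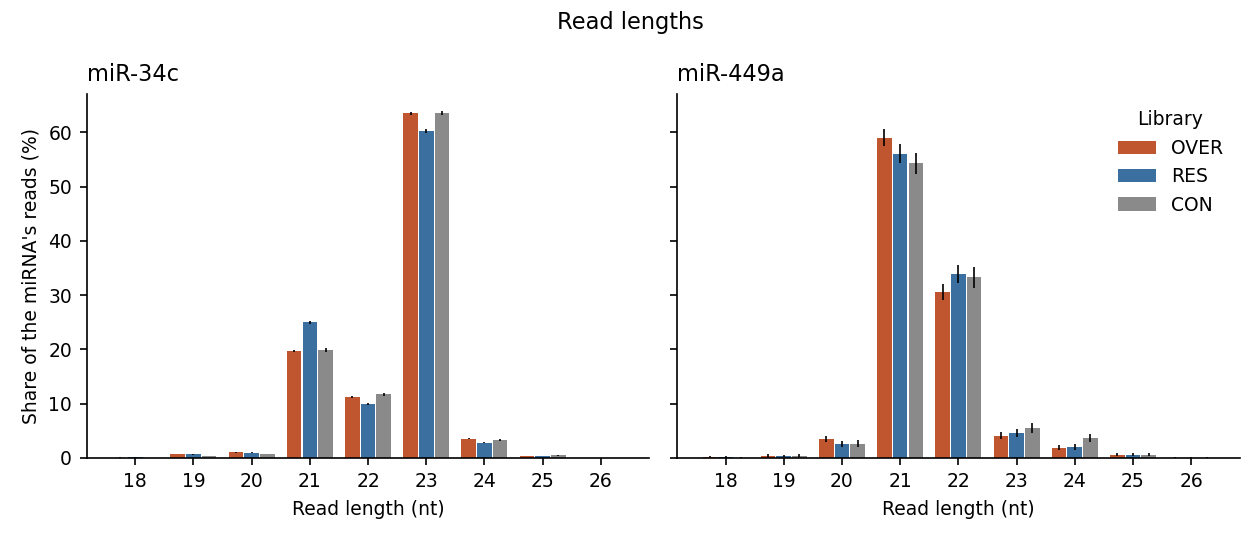
Percent of the reads of miR-34c (left) and of miR-449a (right) at each length from 18 to 26 nt, in the OVER, RES and CON libraries, 1 library each; error bars are exact 95% counting intervals. miR-34c has its highest bars at 23 nt and a second peak at 21 nt that is higher in RES (25.02%) than in OVER (19.7%) and CON (19.9%), while miR-449a peaks at 21 nt.

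Reads with the first bases of the members but shorter than 18 nt fall outside the rule. At 15 to 17 nt, miR-34c had 111 such reads in OVER, 158 in RES and 15 in CON, or 13.4, 12.01 and 1.502 RPM. miR-449a had 1 such read in OVER, 0 in RES and 0 in CON. The lengths of 18 to 20 nt held 1.71% of miR-34c reads in OVER, 1.66% in RES and 1.05% in CON. Short miR-34c reads were thus rarer in CON than in the other libraries, at under 2% of its reads everywhere.

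The last base was nearly fixed at most lengths of miR-34c and mixed at others. At 23 nt the last base was C in 94.9% of reads in OVER, 94.2% in RES and 93.9% in CON. An A stood there in 3.05% in OVER, 3.02% in RES and 3.39% in CON, and a T in 2.08%, 2.78% and 2.66%. At 24 nt the added base was A in 86.8% of reads in OVER, 86.3% in RES and 85.1% in CON. In miR-449a the base after the 21 nt form was T in 64.3% of the 22 nt reads in OVER, 70.3% in RES and 71.0% in CON. It was A in 29.1% in OVER, 26.4% in RES and 25.8% in CON. All these forms, with different last bases, carried the flag for a genome match, so that flag allows differences, and bases of the hairpin and bases added after cutting were not told apart.

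Starts other than the mature 5′ end were counted among miRNA reads that hold bases 3 to 18 of a member. They move the seed and hence the potential targets. miR-34c began at the mature end in 95.5% of such reads in OVER, 94.6% in RES and 94.4% in CON. It began 1 base earlier in 2.29% in OVER, 3.15% in RES and 3.10% in CON, and 2 bases earlier in 2.03%, 2.11% and 2.33%. Later starts were nearly absent, with 0 reads in OVER, 4 in RES and 6 in CON. miR-449a had 2 reads of an earlier start in OVER, 2 in RES and 0 in CON, where 0 of 2503 reads allows up to 0.147%. Its 5′ end was therefore fixed more closely than that of the reads counted as miR-34c.

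The earlier starts counted as miR-34c had other 3′ ends than the mature start. Their most-read forms are shown with bases 2 to 8 of the read, the seed that such a start would have, in capitals.
miR-34c, 1 base earlier: tAGGCAGTgtagttagctgatt
miR-34c, 1 base earlier, long form: tAGGCAGTgtagttagctgattgt
miR-34c, 2 bases earlier: cTAGGCAGtgtagttagctgatt
Ends are counted here from the mature 5′ end, so that the form ending at base 21 ends in the same place whatever its start. Of reads with the mature start, 19.7% ended at base 21 in OVER, 25.02% in RES and 19.9% in CON. Of those that began 1 base earlier, 67.3% did in OVER, 71.0% in RES and 66.5% in CON. Of those that began 2 bases earlier, 93.3% did in OVER, 92.7% in RES and 93.2% in CON. The share of ends at base 21 thus went up with each earlier start in all 3 libraries. The few reads of the start 1 base earlier that reached base 23 mostly had a T there, in 9.83% of the reads of that start in OVER, 11.7% in RES and 12.8% in CON. A C at base 23 was found in 3.07% of them in OVER, 2.26% in RES and 2.28% in CON. With the mature start, C was the last base in 60.2% of reads in OVER, 56.8% in RES and 59.7% in CON, and T in 1.32%, 1.68% and 1.69%.

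A miR-34b-like strand was found at the same place. It differs from miR-34c by G11A, counted from the mature 5′ end of miR-34c, and in the mouse miR-34b-5p has that base. Among reads with the mature start, A stood at base 11 in 0.112% in OVER, 0.162% in RES and 0.168% in CON. Of these reads, 60.6% ended in T at base 23 in OVER, 51.0% in RES and 71.1% in CON, an end that was rare in miR-34c reads with the mature start. Among reads that began 1 base earlier it stood there in 9.62% in OVER, 13.7% in RES and 12.6% in CON. At the start 2 bases earlier it had 0 reads beside 1870 in OVER, which allows up to 0.197%. There were 0 beside 2021 in RES, which allows up to 0.182%, and 1 read in CON. In all 3 libraries the start 1 base earlier was thus the main start of the miR-34b-like strand, with 225 reads in OVER, 478 in RES and 272 in CON. With that start, 74.7% of its reads ended at base 21 in OVER, 67.8% in RES and 69.1% in CON, close to the shares of miR-34c. A T at base 23 ended 17.8% of them in OVER, 19.9% in RES and 19.9% in CON, above the shares of miR-34c. Some reads counted as miR-34c, with G at base 11, thus shared this start and this end with the miR-34b-like strand. Which hairpin those reads came from was not tested.

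**Figure D4:**
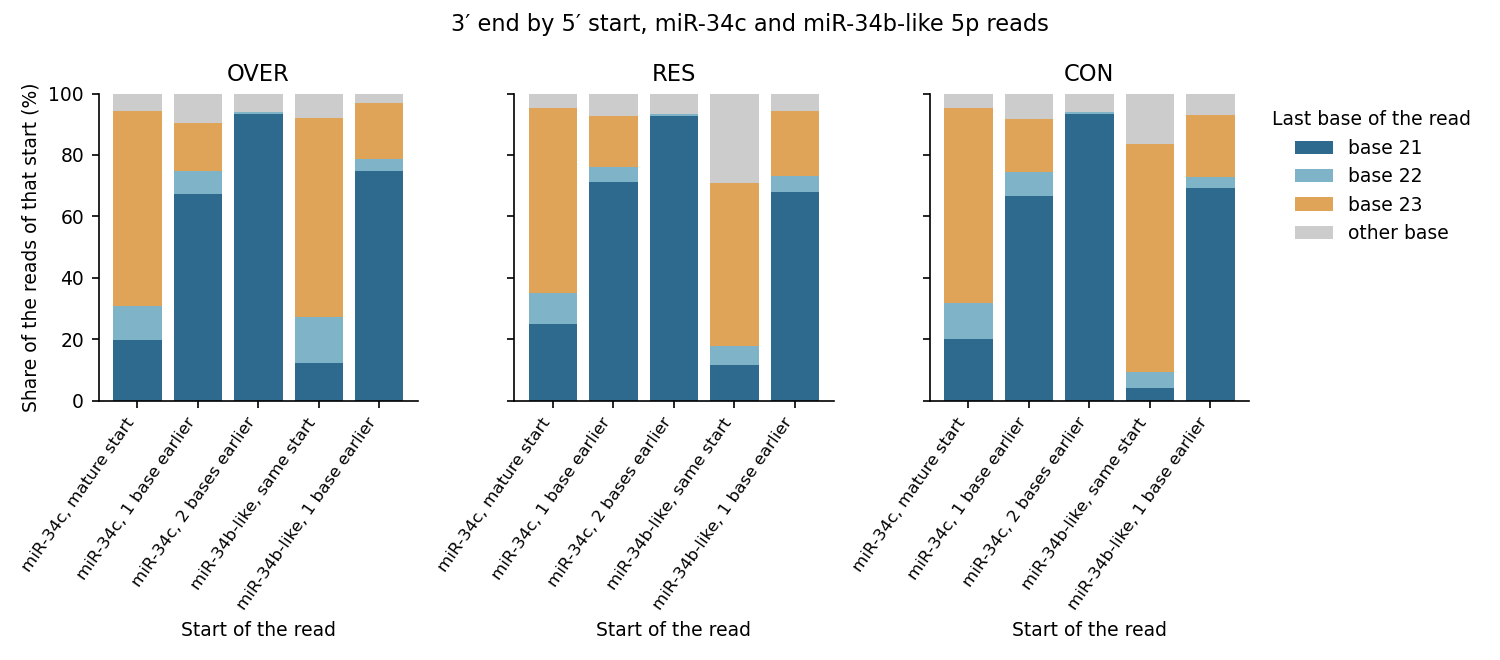
Percent of reads ending at base 21, 22, 23 or elsewhere, counted from the mature 5′ end of miR-34c, for miR-34c reads with 3 starts and for miR-34b-like reads with 2 starts, in the OVER, RES and CON libraries. Ends at base 21 take 19.7% to 25.02% of miR-34c reads with the mature start and 92.7% to 93.3% of those that begin 2 bases earlier; the miR-34b-like bars of the same start rest on 99, 147 and 97 reads.

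Both 3p strands were sought by the same seed, so that they share it follows from the search. Their first 18 bases were the same at 13 positions, the 7 bases of the seed included. The more abundant one was set beside miR-34b and the other beside miR-34c by textbook sequence. Their predicted pairing gave the same assignment. Computed with RNAduplex, the miR-34b-like 5p strand paired with the first at -22.8 kcal/mol and with the second at -17 kcal/mol. The miR-34c strand paired with the second at -20.5 kcal/mol and with the first at -19.8 kcal/mol, a small difference.

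The 3p strand of miR-34c was rare. It had 456 reads in OVER, 195 in RES and 99 in CON, or 0.0330%, 0.0128% and 0.0118% of miRNA reads. By this share OVER stood above RES and CON, which lay close together. The log2 ratio of shares was 1.49 (1.17 to 1.81) in OVER against CON and 0.11 (-0.24 to 0.48) in RES against CON, and 1.37 (1.13 to 1.62) in OVER against RES. In OVER against CON it was 2.47 in RPM and 1.17 with TMM, at least 2-fold higher in OVER on each scale. In OVER against RES it was 1.89 in RPM and 0.94 (0.69 to 1.19) with TMM, which is under 2-fold. In RES against CON it was 0.58 (0.22 to 0.94) in RPM and 0.23 (-0.12 to 0.60) with TMM. There were 193.3 reads of miR-34c per 3p read in OVER, 464.6 in RES and 581.2 in CON. By share of miRNA reads the 3p strand passed 2-fold with OVER higher in both comparisons of OVER. So did 18.2% of all starts compared in OVER against CON and 27.7% in OVER against RES.

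The miR-34b-like hairpin had the opposite balance of strands. Its 3p strand had 19633 reads in OVER, 30217 in RES and 10521 in CON, or 1.42%, 1.98% and 1.25% of miRNA reads. Its 5p strand, over both starts, had 324 reads in OVER, 625 in RES and 369 in CON. Reads with G at base 11 that began 1 base earlier are not in these counts. They numbered 2115 in OVER, 3011 in RES and 1887 in CON, and any from this hairpin would lower the ratios that follow. There were 60.6 reads of the 3p strand per read of the 5p strand in OVER, 48.3 in RES and 28.5 in CON. The log2 ratio of shares of the 3p strand was 0.18 (0.15 to 0.22) in OVER against CON and 0.66 (0.63 to 0.69) in RES against CON. The first of these turned to -0.13 with TMM, and in RPM they were 1.17 and 1.12. That of the 5p strand was -0.91 (-1.13 to -0.69) in OVER against CON and -0.10 (-0.29 to 0.09) in RES against CON. For the 5p strand in OVER against CON, RPM gave 0.08 (-0.14 to 0.30) and TMM -1.22. The 3p strand passed 2-fold in RPM, as did 53.1% of starts with OVER above CON and 25% with RES above CON. The 5p strand passed it with TMM, as did 23.1% of starts with OVER below CON. In OVER against RES the 3p strand gave -0.48 by share, 0.045 in RPM and -0.91 with TMM. The 5p strand gave -0.80, -0.28 and -1.23, where 22.6% of starts were at least 2-fold lower with TMM. By share of miRNA reads the miR-34b-like 3p strand was highest in RES, where miR-34c was lowest. There were 4.49 reads of miR-34c per read of it in OVER, 2.998 in RES and 5.47 in CON. miR-34c and the miR-34b-like 3p strand thus did not keep a fixed ratio across the libraries, whatever the scaling.

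Single-base differences within the first 18 bases were few, and for miR-34c their summed share was alike in the libraries. Starts 1 base from miR-34c held 1.39% of the reads in OVER, 1.34% in RES and 1.37% in CON, when set against themselves and miR-34c together. The most-read of them was C16T, at 0.189% in OVER, 0.194% in RES and 0.172% in CON. G11A, the base of the miR-34b-like strand, is also among them. It stood at 0.112% (0.0912 to 0.1366) in OVER, 0.162% (0.1369 to 0.1904) in RES and 0.168% (0.1365 to 0.2053) in CON. The counting interval of OVER slightly overlapped that of CON and lay just below that of RES. For miR-449a, such starts held 0.919% in OVER, 0.985% in RES and 1.42% in CON, with overlapping counting intervals. Such reads can be sequencing errors as well as other molecules, and are not part of the members' levels.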

How the data were processed

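Per the file headers, the 9 tables deposited by the authors list each distinct sequence with its length, its read count, a genome flag and an annotation, and these deposited counts are unnormalized. edgeR is named in the submitters' processing notes. Not given in the sources used here are aligner, annotation source and genome build. Within each group the 3 tables were identical in sequences, counts and flags, and annotation terms differed in 0 to 3 sequences, so 1 table per group was used. The planned edgeR tests were therefore not run.

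The members and marker lists were chosen with earlier results of these data known. No miRNA sequence table was at hand: the members were taken as the most-read 18-base starts with the family seed at bases 2 to 8, and are named miR-34c and miR-449a by their known mature sequences. No genome position is given. The text names both members, relatives and arms of their hairpins and the part of the germ line list that was analysed. It also gives the 5 nearest ovine names and the 5 most-read sequences of each member. The marker miRNAs miR-451, miR-486 and miR-223 were counted by seed among miRNA reads. Listed markers that are not named above were not counted.

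The main scale was the share of all miRNA reads, and RPM, scaled to all reads, is beside it. Starts with at least 100 reads in 2 libraries together were compared, and 2-fold stood in for a test. Shares have Clopper-Pearson intervals, log2 ratios the exact binomial interval of the 2 counts, and ratios of ratios the interval from the summed inverse counts. Where a start had no read, 3 reads were put in its place. Starts with 3 or fewer reads in both libraries were left out. The calculation was checked on simulated counts. Alternatives were all reads, TMM (edgeR 4.0.16), DESeq2 1.42.0 size factors, length windows, 1 mismatch, other starts and a minimum of 1 read. Python 3.11.15, pandas 2.3.3, scipy 1.17.1 and RNAduplex 2.7.2 were used.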

Additional observations from a re-analysis of the deposited data

Results flagged for a closer look

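Reads with no annotation also began with the first 18 bases of the members. They lie outside the levels above, and none matched the genome by the deposited flag. They are given here because their level in RPM was higher in OVER than in CON for both members, which does not hold by share of miRNA reads. For miR-34c they numbered 741 in OVER, 731 in RES and 621 in CON, or 89.4 RPM, 55.5 RPM and 62.2 RPM. Set against the miRNA reads, they came to 0.0537% in OVER, 0.0478% in RES and 0.0740% in CON. They made up 0.834% of the reads with this start in OVER, 0.8004% in RES and 1.07% in CON. For miR-449a they numbered 182 in OVER, 188 in RES and 194 in CON, or 21.96 RPM, 14.3 RPM and 19.4 RPM, and 4.73%, 5.69% and 7.19% of the reads with its start. The counting intervals in RPM overlapped between OVER (18.9 to 25.4) and CON (16.8 to 22.4), and set against the miRNA reads the values were 0.0132% in OVER, 0.0123% in RES and 0.0231% in CON. These reads were longer than the annotated ones, with a mean of 24.6 nt in OVER, 25.2 nt in RES and 24.9 nt in CON for miR-34c. Of the miR-34c reads among them, 68.3% ended in 2 A bases in OVER, 61.6% in RES and 59.6% in CON. Of the miR-449a reads, 32.4% did in OVER, 28.2% in RES and 30.9% in CON.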

How the results depend on the processing

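Of 117 recomputed values, 47 moved, 6 turned and 64 did neither, which for a count of starts means that it stayed within 1.5 times and for other values that it stayed within the counting interval. With all reads as the library size, miR-34c gave log2 ratios of 0.88 in OVER against CON and 0.26 in RES against CON, both turned, and 0.63 in OVER against RES; miR-449a gave 0.82, turned, -0.083 and 0.90. Values below keep this order of comparisons, and shares the order OVER, RES and CON. Their shares were then 1.06% in OVER, 0.688% in RES and 0.576% in CON for miR-34c, and 0.0442%, 0.0237% and 0.0251% for miR-449a. TMM gave -0.42, -0.090 and a turned -0.33 for miR-34c, and -0.48, -0.43 and -0.052 for miR-449a. DESeq2 size factors gave -0.33, -0.072 and a turned -0.26 for miR-34c, and -0.39, -0.41 and 0.019 for miR-449a. With reads of any kind of 20 to 24 nt as the total, miR-34c gave -0.31, -0.24 and a turned -0.071, and miR-449a -0.38 in OVER against CON and 0.20 in OVER against RES. With miRNA reads of 20 to 24 nt only, miR-34c gave -0.12, -0.17 and 0.045, with shares of 6.61%, 6.41% and 7.19%, and miR-449a shares of 0.274%, 0.220% and 0.313%. At 16 to 24 nt miR-34c gave -0.14, -0.18 and 0.040. Counting earlier and later starts gave -0.12 in OVER against CON and 0.092 in OVER against RES, with shares of 6.67%, 6.26% and 7.25%. Allowing 1 mismatch gave shares of 6.47%, 6.01% and 6.95%. Starts at least 2-fold apart numbered 115, 83 and 154 with the read minimum. With all reads as the library size the count in OVER against CON was 198. With a minimum of 1 read the counts were 567, 549 and 793, still without starts at 3 or fewer reads in both libraries. The number of starts compared at that minimum is not given, so these counts cannot be read as shares. Some of these alternatives change the library total and others which reads or starts are counted, and no other cause was tested. The ratio of miR-34c to miR-449a stayed within counting error under both alternatives run for it, reads of 20 to 24 nt only and 1 mismatch. Changes of the library size cancel out of this ratio and cannot move it. No paired analysis was possible because the 3 tables of a group are identical, so replicate numbers tell no samples apart; for the same reason no replicate could be left out. Depth limits the rare forms: 3 reads are 0.362 RPM in OVER, 0.228 RPM in RES and 0.300 RPM in CON.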
